A study of Mus musculus with 20 samples.

Results

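The kidney keeps phosphate and makes the active form of vitamin D through a small set of genes, and 10 of them were followed here by symbol in mouse kidney RNA, out of 47069 genes counted. They were the brush border sodium-phosphate cotransporters Slc34a1 and Slc34a3, the widely expressed cotransporters Slc20a1 and Slc20a2, the scaffold proteins Slc9a3r1 and Pdzk1, the co-receptor Kl (Klotho), the vitamin D enzymes Cyp27b1 and Cyp24a1, and the vitamin D receptor Vdr. All 10 passed the filter on low counts. In kidneys of vehicle-treated Col4a3-/- mice, 7 of the 10 were lower and 2 were higher than in wild-type kidneys. Of all tested genes, 34% were called lower and 39% higher in that comparison. Slc20a2 lost its direction when libraries were scaled by their totals. Under both treatments Slc34a1, Slc34a3, Slc9a3r1, Pdzk1, Kl and Vdr were higher than with vehicle. Of all tested genes, 28.8% were called higher with anti-miR-21 and 21% with the ACE inhibitor.

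As background, phosphate filtered at the glomerulus is taken back in the proximal tubule, mainly by Slc34a1 with Slc34a3 beside it, and the PDZ-domain scaffolds Slc9a3r1 (NHERF1) and Pdzk1 (NHERF3) hold these cotransporters at the brush border. The hormone FGF23, acting through FGF receptors with Klotho as co-receptor, and parathyroid hormone both lower phosphate uptake. FGF23 also lowers Cyp27b1, the 1-alpha-hydroxylase that makes calcitriol, and raises Cyp24a1, the 24-hydroxylase that breaks it down, while calcitriol acts through the receptor Vdr. In the kidney Klotho is made mostly in the distal convoluted tubule and, at a lower level, in the proximal tubule. Loss of renal Klotho and disturbed phosphate balance are known features of chronic kidney disease.

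The study sequenced 1 kidney RNA library from each of 20 mice, all males killed at 15 weeks and all 129SJ x C57Bl/6J hybrids. WT mice (n = 5) carried intact Col4a3 and were left untreated, whereas the other 3 groups were Col4a3-/-. This is a model of autosomal recessive Alport syndrome, with a homozygous mutation in the gene for this basement membrane collagen chain in all cells. From 5 weeks of age, Veh mice (n = 6) had weekly subcutaneous PBS, Anti-miR-21 mice (n = 6) had lademirsen, an oligonucleotide that blocks microRNA-21, at 50 mg/kg on the same schedule, and ACEi mice (n = 3) had the angiotensin-converting enzyme inhibitor ramipril at 11 mg/L in their drinking water with PBS injections. WT mice had no injections, so Veh and WT differ by genotype and by injection.

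The libraries held 28474301 to 29479629 estimated counts each, so depth differed little. Levels are given as CPM, counts relative to TMM-scaled library size, and differences as log2 fold changes with their standard error (SE) from edgeR's quasi-likelihood test, called at an adjusted p under 0.05 over 17622 genes. The targeted gene Col4a3 was at 193.8 to 237.5 CPM in WT and at 27.9 to 74.86 CPM across the 15 Col4a3-/- libraries, below WT in each of them. The extraction text names adipose tissue while the tissue label says kidney. The 6 proximal tubule markers summed to 934.3 CPM or more in every library, with none at 0 throughout a group, and the 5 adipocyte markers to 22.44 CPM or less in 16 of the 20. The other 4 libraries, Veh mice A1, A4 and A9 and Anti-miR-21 mouse A12, held 90.05 to 120.3 CPM of adipocyte markers, so the counts of called genes are also given without these 4.

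RefSeq promoters (250 bases before to 50 after a start, GRCm38.p6) were found for 8 of the 10 genes. Those of Slc34a1, Kl and Cyp27b1 are printed because these genes stand for the brush border transport, the FGF23 co-receptor and the enzyme that moved the other way. Capitals mark the HNF1 half-site GTTAAT on either strand. The Slc34a1 promoter, at chr13:55399398-55399697 on the plus strand, held 2 such matches starting 89 and 61 bases before the start, and it was the only member promoter with one, against 7.1% of 32851 promoters of the same length. No member promoter held the spaced vitamin D receptor motif (a direct repeat of the hexamer AGGTCA, with G or T allowed at the third base and A or G at the first, and 3 bases between the copies, either strand), which was present in 0.0396% of all promoters. The Kl promoter lies at chr5:150952357-150952656 and that of Cyp27b1 at chr10:127047996-127048295, both on the plus strand. GC content was 46.7% for Slc34a1, 54.3% for Cyp27b1 and 67.3% for Kl, with a median of 52.7% over all promoters. A match is a description of the letters only.
Slc34a1: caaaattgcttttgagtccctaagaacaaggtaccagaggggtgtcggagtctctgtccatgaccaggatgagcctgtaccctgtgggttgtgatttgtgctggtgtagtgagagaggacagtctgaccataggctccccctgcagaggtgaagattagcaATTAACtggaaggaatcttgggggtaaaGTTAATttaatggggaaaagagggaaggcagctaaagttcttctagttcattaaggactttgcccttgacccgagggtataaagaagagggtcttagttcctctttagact
Kl: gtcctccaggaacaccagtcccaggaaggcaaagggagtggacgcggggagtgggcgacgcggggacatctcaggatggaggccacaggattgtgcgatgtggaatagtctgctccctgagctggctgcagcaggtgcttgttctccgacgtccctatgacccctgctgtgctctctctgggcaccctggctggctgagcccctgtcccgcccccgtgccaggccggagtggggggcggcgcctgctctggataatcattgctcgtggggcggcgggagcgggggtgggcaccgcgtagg
Cyp27b1: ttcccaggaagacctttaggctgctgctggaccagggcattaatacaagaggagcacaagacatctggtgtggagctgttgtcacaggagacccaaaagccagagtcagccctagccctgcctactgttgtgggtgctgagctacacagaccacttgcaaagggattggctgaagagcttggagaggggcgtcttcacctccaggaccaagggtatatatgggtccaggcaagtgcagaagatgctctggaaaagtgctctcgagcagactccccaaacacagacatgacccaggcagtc

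Between Veh and WT, 7 of the 10 genes were called lower and 2 higher, while Cyp24a1 was not called. Across all tested genes 34% were called lower and 39% higher in the same comparison. Levels in Veh and WT were fully apart for 9 of the 10, the exception being Cyp24a1, and such separation was seen for 54.9% of all genes. Of the genes called, 53.38% were higher in Veh, a share that became 81.24% when only library totals were used. The median log2 fold change of the 10 was -1.53, with a median of 0.07 over all genes. The libraries were run on 2 flow cells, the first with 3 WT, 4 Veh, 5 Anti-miR-21 and 1 ACEi libraries and the second with 2, 2, 1 and 2. Within each flow cell 9 of the 10 were called between Veh and WT, where 12019 of 18433 and 8970 of 17903 genes were called. Slc34a1 was at -3.11 and -1.98, Kl at -2.81 and -1.80 and Cyp27b1 at 1.84 and 1.81. Because the RNA comes from whole kidneys, fewer cells of a type and less RNA per cell cannot be told apart.

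**Figure D1:**
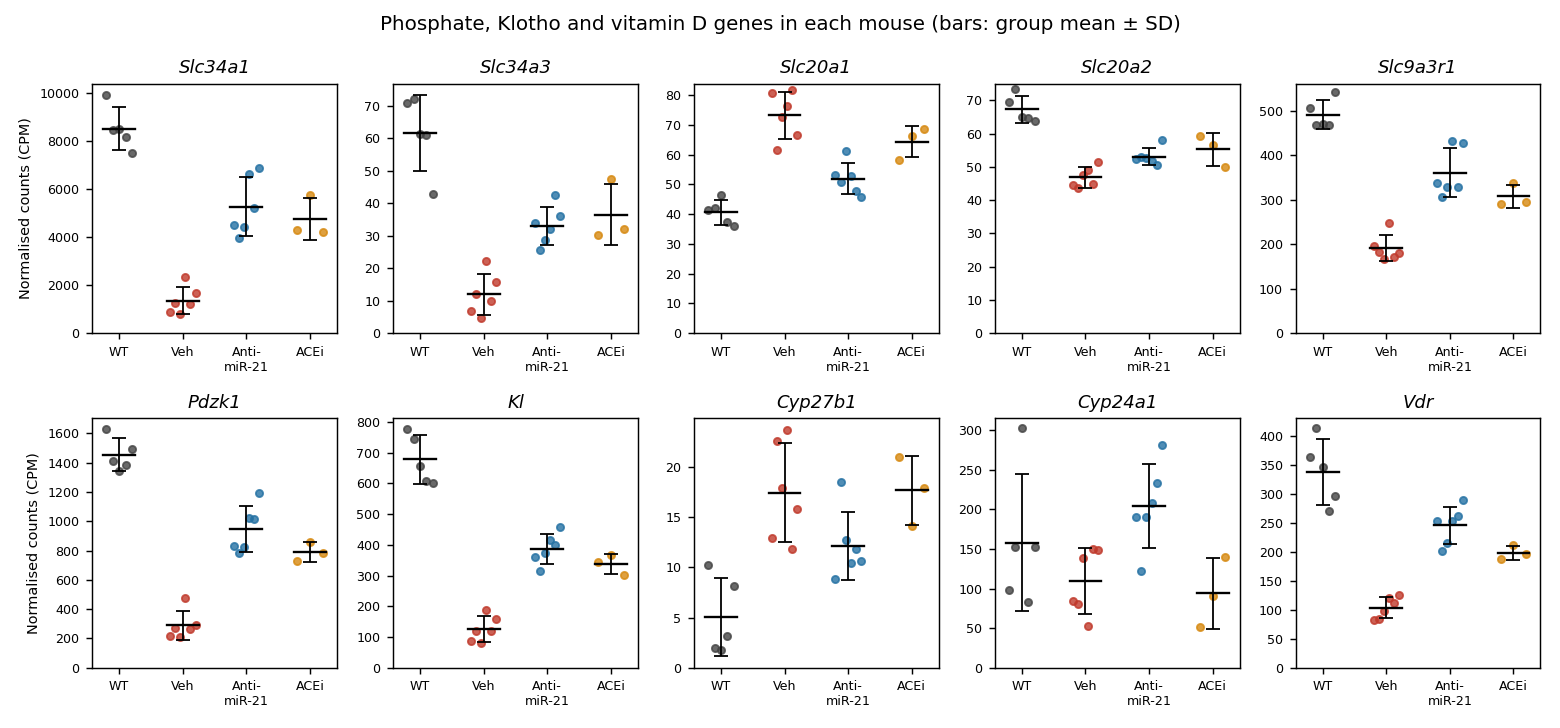
Normalised counts (CPM, linear axes from 0) of the 10 genes in each mouse, by group, with the group mean as a line and bars of 1 SD. Slc34a1 sits at 7513 CPM or more in WT and at 2330 CPM or less in Veh, with both treated groups between, while Cyp27b1 is lowest in WT and Cyp24a1 overlaps in all groups.

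Slc34a1, the main phosphate cotransporter of the proximal brush border (chromosome 13, 55398187 to 55415592, plus strand), was the most abundant of the 10. WT mice had 7513, 8163, 8460, 8517 and 9932 CPM, whereas Veh mice ran from 787.9 to 2330 CPM with a median of 1224. The highest Veh mouse lay below the lowest WT mouse. The log2 fold change was -2.66 (SE 0.23, adjusted p = 2.2e-09), which is 6.30-fold lower. Its exons share 545 bases with Pfn3 on the opposite strand, and whether counting used the strand is not given in the sources used here. Anti-miR-21 mice had 3976 to 6895 CPM with a median of 4866, and ACEi mice had 4199, 4308 and 5740 CPM. Each treated mouse was therefore above every Veh mouse and below every WT mouse. Against Veh the log2 change was 1.96 (SE 0.22, adjusted p = 3.5e-07) with Anti-miR-21 and 1.81 (SE 0.25, adjusted p = 2.3e-05) with ACEi. Against WT it was -0.69 with Anti-miR-21 (adjusted p = 0.016), a call lost on the FPKM scale (log2 -0.47, adjusted p = 0.066) and in the second flow cell alone (adjusted p = 0.13), and -0.84 with ACEi (adjusted p = 0.016). The ACEi difference from WT was lost without mouse A11 or mouse A23 (adjusted p = 0.068 and 0.074) and with library totals alone (log2 -0.53, adjusted p = 0.061).

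Slc34a3, the second brush border cotransporter (chromosome 2, 25228898 to 25234364, minus strand), moved with Slc34a1 at a far lower level. WT mice had 42.95, 60.91, 61.45, 70.87 and 72.22 CPM and Veh mice 4.48 to 22.28 CPM with a median of 11.04. Its log2 fold change was -2.38 (SE 0.28, adjusted p = 1.6e-07). With Anti-miR-21 it was at 25.6 to 42.37 CPM (median 32.97), higher than in Veh by 1.48 on the log2 scale (SE 0.27, adjusted p = 8.3e-05). The ACEi mice had 30.07, 31.96 and 47.38 CPM, with a log2 change of 1.62 from Veh (SE 0.31, adjusted p = 0.00039). All treated mice were above the Veh mice. WT mouse A18, the lowest of its group, fell within the range of ACEi, and the ACEi difference from WT (log2 -0.76, SE 0.33) was not called (adjusted p = 0.065), whereas it was called without A18 (adjusted p = 0.044), without A13 (adjusted p = 0.048), by DESeq2 (adjusted p = 0.044) and with the flow cell as a term (adjusted p = 0.041).

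The scaffolds were lower too, and Pdzk1 by more than Slc9a3r1. Pdzk1 (chromosome 3) had 1345, 1386, 1415, 1497 and 1631 CPM in WT and 211.6 to 479.3 CPM in Veh (median 267.1), with a log2 change of -2.33 (SE 0.17, adjusted p = 2e-10). Slc9a3r1 (chromosome 11) had 468.5, 468.6, 470.5, 505.4 and 541.5 CPM in WT and 167.5 to 247.2 CPM in Veh (median 181.4), with a log2 change of -1.37 (SE 0.11, adjusted p = 5.4e-10). Neither gene overlapped between the groups. In Anti-miR-21 kidneys Pdzk1 ran from 786.4 to 1193 CPM and Slc9a3r1 from 306.3 to 432.1 CPM, and both stood above all Veh values, by 1.71 (SE 0.16, adjusted p = 7.4e-08) and 0.92 (SE 0.10, adjusted p = 3.5e-07) on the log2 scale. ACEi mice had Pdzk1 at 727.9, 786.3 and 861.1 CPM and Slc9a3r1 at 289, 294.9 and 337.7 CPM, with log2 changes from Veh of 1.45 (SE 0.19, adjusted p = 1.7e-05) and 0.69 (SE 0.12, adjusted p = 0.0002). Both genes stayed below WT in both treated groups, between -0.45 and -0.88 on the log2 scale. Pdzk1 shares 1482 exon bases with 3 genes of the opposite strand.

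Of the widely expressed cotransporters, Slc20a1 moved against the brush border pair between Veh and WT. Slc20a2 had the direction of the pair in the main fit, by less and depending on the scaling. Slc20a1 (PiT-1, chromosome 2) was higher in Veh, at 61.75 to 81.65 CPM (median 74.49), than in WT, where the mice had 35.95, 37.24, 41.43, 42.12 and 46.37 CPM. The log2 change was 0.85 (SE 0.09, adjusted p = 2.8e-08). Anti-miR-21 mice had 45.82 to 61.11 CPM, all below the Veh mice, with a log2 change of -0.50 (SE 0.08, adjusted p = 3.5e-05). ACEi mice had 58.38, 66.38 and 68.55 CPM and overlapped Veh, and this difference (log2 -0.19, SE 0.10) was not called (adjusted p = 0.15), although upper-quartile scaling (log2 -0.26) and library totals (log2 -0.46) put it past the threshold. Relative to WT, Slc20a1 stayed higher by 0.36 with Anti-miR-21 (adjusted p = 0.0029) and by 0.67 with ACEi (adjusted p = 3e-05).

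Slc20a2 (PiT-2, chromosome 8) is the gene whose direction hung on the scaling. In TMM-scaled CPM it was 63.76 to 73.54 in WT and 43.54 to 51.55 in Veh, with no overlap and a log2 change of -0.52 (SE 0.06, adjusted p = 1.2e-07). With library totals alone the change was 0.06 (adjusted p = 0.41), and on the deposited FPKM scale 0.07 (adjusted p = 0.35). Library totals moved the median of all genes from 0.07 to 0.65 in this comparison, and relative to that median Slc20a2 stood at -0.59 under both scalings. On the log2(FPKM + 1) scale it stood at -0.15 from a median of 0.22. That median is over 21460 FPKM entries and not the 17622 filtered genes, and it was 0.43 with log2(FPKM + 0.1). The FPKM value is therefore not comparable with the other 2. The rise from Veh with Anti-miR-21 (log2 0.18, SE 0.06, adjusted p = 0.011) turned into a fall with library totals (log2 -0.16, adjusted p = 0.033), and that with ACEi (log2 0.24, SE 0.07, adjusted p = 0.01) into -0.03 (adjusted p = 0.74). The ACEi difference was also lost without ACEi mouse A11 (adjusted p = 0.071). Upper-quartile scaling lost both treatment calls (adjusted p = 0.11 and 0.052).

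**Figure D2:**
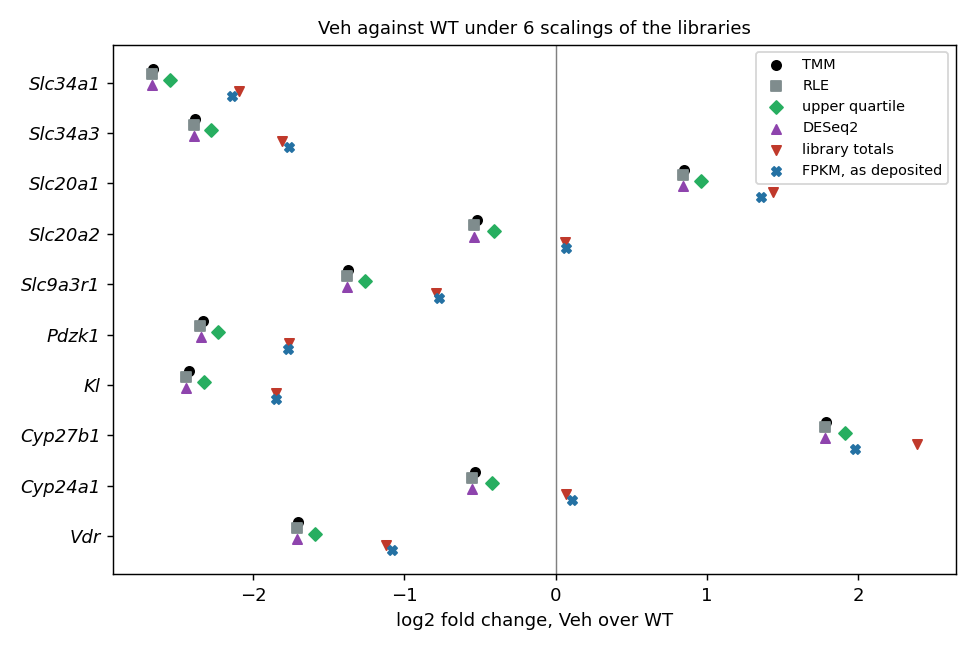
The log2 fold change of each of the 10 genes between Veh and WT (horizontal axis) under 6 scalings of the libraries (symbols). Library totals and the deposited FPKM shift all genes to the right, so that Slc20a2 (-0.52 with TMM, 0.06 with totals) and Cyp24a1 (-0.53 with TMM, 0.07 with totals) cross 0, while the other 8 stay on their side.

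Kl, the Klotho co-receptor for FGF23 (chromosome 5, 150952607 to 150993817, plus strand), was 5.36-fold lower in Veh than in WT. The WT mice had 601.6, 608.7, 657.5, 744.5 and 776.8 CPM and the Veh mice 81.95 to 189.1 CPM with a median of 120.3. The highest Veh value lay far below the lowest WT value. The log2 change was -2.42 (SE 0.17, adjusted p = 1.7e-10). With Anti-miR-21 Kl was at 316.5 to 458.6 CPM (median 386.5) and with ACEi at 302.8, 343.9 and 367.7 CPM. All 9 treated mice lay between the Veh and the WT ranges. The rise over Veh was 1.62 (SE 0.16, adjusted p = 1.3e-07) with Anti-miR-21 and 1.42 (SE 0.19, adjusted p = 2e-05) with ACEi, and Kl remained 1.748-fold lower than in WT (adjusted p = 0.00071) and 2.005-fold lower (adjusted p = 0.00063). No annotated gene overlaps the Kl exons.

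The vitamin D genes each behaved differently. Cyp27b1, which makes calcitriol (chromosome 10, 127048250 to 127053006, plus strand), was the least abundant of the 10 in WT and was higher in Veh. WT mice had 1.774, 1.928, 3.148, 8.137 and 10.24 CPM, in which mice A3 and A18 stood above the other 3. Veh mice had 11.79 to 23.73 CPM with a median of 16.86, above all WT mice, with a log2 change of 1.79 (SE 0.36, adjusted p = 0.00016). Without A3 the change was 2.22 and without A14 it was 1.58. Anti-miR-21 mice had 8.818 to 18.56 CPM and overlapped Veh (log2 -0.52, SE 0.32, adjusted p = 0.17). This difference was called with library totals (log2 -0.84, adjusted p = 0.024), on the FPKM scale (log2 -0.74, adjusted p = 0.014) and when only these groups were fitted (log2 -0.51, adjusted p = 0.037). ACEi mice had 14.17, 17.89 and 21.02 CPM, within the Veh range, and differed from Veh by 0.02 (SE 0.39, adjusted p = 0.97). Both treated groups stayed above WT, by 1.28 (adjusted p = 0.0075) and 1.82 (adjusted p = 0.0012).

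Cyp24a1, which breaks calcitriol down (chromosome 2, 170482708 to 170497145, minus strand), spread widely between mice of a group, with a coefficient of variation of 54.89% in WT. WT mice had 83.64, 98.35, 151.9, 152.2 and 302.2 CPM and Veh mice 52.3 to 149.9 CPM with a median of 111.4. The groups overlapped, and the difference (log2 -0.53, SE 0.33) was not called (adjusted p = 0.15). Its sign depended on the scaling, at 0.07 with library totals. Anti-miR-21 mice had 121.7 to 280.8 CPM with a median of 199.7 and were higher than Veh by 0.91 on the log2 scale (SE 0.31, adjusted p = 0.018), with overlapping ranges. That call was lost with library totals (log2 0.53, adjusted p = 0.13) and without the 4 libraries rich in adipocyte markers (log2 0.82, adjusted p = 0.13). ACEi mice had 51.19, 90.64 and 140.3 CPM and did not differ detectably from Veh (log2 -0.21, SE 0.39, adjusted p = 0.69).

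Vdr, the calcitriol receptor (chromosome 15, 97854425 to 97910630, minus strand), was lower in Veh. WT mice had 269.6, 296.3, 346.6, 363 and 413.6 CPM and Veh mice 82.28 to 125.7 CPM with a median of 105.1, without overlap. The log2 change was -1.70 (SE 0.13, adjusted p = 2.7e-10). Anti-miR-21 mice, at 200.9 to 289.3 CPM, were all above Veh by a log2 change of 1.24 (SE 0.12, adjusted p = 9.6e-08), and their highest values reached into the WT range. ACEi mice had 187.8, 196.1 and 211.9 CPM, above Veh (log2 0.93, SE 0.14, adjusted p = 5.1e-05) and below WT (log2 -0.77, adjusted p = 0.00046). The Anti-miR-21 difference from WT (log2 -0.46, adjusted p = 0.0057) was lost with library totals (log2 -0.22, adjusted p = 0.11).

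Levels of different genes can be set side by side only per length, on the authors' FPKM scale. In WT the order of the group means was Slc34a1 (2280 FPKM), Pdzk1 (507.7), Slc9a3r1 (211.1), Kl (109.1), Vdr (63.83), Cyp24a1 (39.34), Slc34a3 (23.53), Slc20a2 (15.2), Slc20a1 (10.15) and Cyp27b1 (1.689). Ranges over mice overlapped for Vdr with Cyp24a1, for Cyp24a1 with Slc34a3 and for Slc34a3 with Slc20a2, so these neighbours are not ordered beyond their spread. In Veh the first 3 kept their places, at 543.2, 152.4 and 123.6 FPKM, but the ranges of Pdzk1 and Slc9a3r1 overlapped. Cyp24a1 (41.62), Kl (30.51), Vdr (29.63) and Slc20a1 (27.75) then formed a middle group with overlapping ranges. Below Slc20a2 (15.97 FPKM) came Cyp27b1 (8.921) and Slc34a3 (6.784), whose ranges overlapped, so these 2 are not ordered. Slc34a1, Slc20a2, Pdzk1 and Cyp24a1 carry a mark for confounded genes in the deposited FPKM annotation, and what that mark tests is not given in the sources used here.

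Against Veh, 8 of the 10 genes were called higher and Slc20a1 lower with Anti-miR-21, where 28.8% of all genes were called higher and 30.5% lower. With ACEi 7 were called higher and 0 lower, where the shares were 21% and 19.1%. Slc20a2, counted as higher in both, turned sign with library totals. The share of higher genes among all calls was 48.59% with Anti-miR-21 and 52.36% with ACEi, and 19.96% and 20.51% with library totals alone. Ranges were apart for 7 of the 10 with Anti-miR-21 (36.4% of all genes) and for 6 with ACEi (38.6% of all genes). Both comparisons use the same Veh mice, so their values are only set side by side. In the first flow cell alone 9 of the 10 were called with Anti-miR-21, where 9855 of 18433 genes were called. In the second, with 2 ACEi libraries, 3 were called with ACEi, where 1316 of 17903 genes were called. In the 1 Anti-miR-21 library of the second flow cell, Slc34a1 stood 1.14 above Veh on the log2 scale. Without the 4 libraries rich in adipocyte markers, 9 of the 10 were called for Veh against WT, 7 for Anti-miR-21 against Veh and 6 for ACEi against Veh. Of 17263 genes tested in that fit, 11694, 8007 and 4614 were called. The Slc34a1 change between Veh and WT was then -2.30 in place of -2.66. Slc20a2 was no longer called for either treatment (adjusted p = 0.087 and 0.059).

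**Figure D3:**
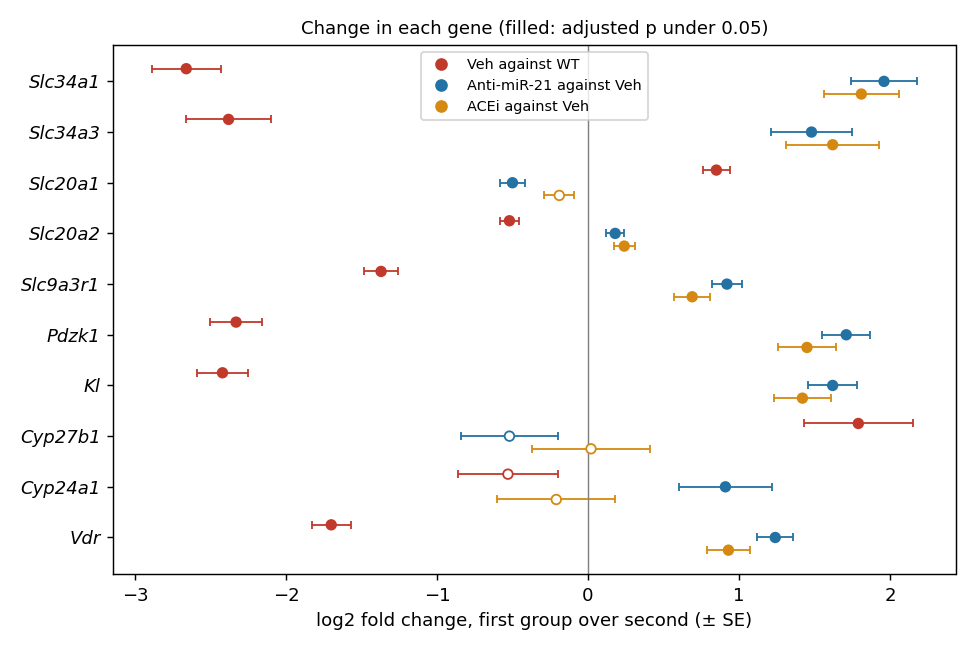
The log2 fold change with 1 SE for each gene in 3 comparisons (colours), filled where the adjusted p is under 0.05. Changes of Veh from WT lie to the left for 8 genes and to the right for Slc20a1 and Cyp27b1, and Cyp27b1 is open for both treatments.

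Against WT, Anti-miR-21 kidneys still had 7 of the 10 genes lower and 2 higher (19.8% and 23.9% of all genes), and ACEi kidneys had 6 lower and 2 higher (22.5% and 25.2% of all genes). Cyp24a1 was called in neither comparison (log2 0.37 and -0.75). The share of higher genes among all calls was 54.59% and 52.73%, and 88.55% and 85.62% with library totals alone. With library totals Slc20a2 lost its call with Anti-miR-21 (log2 -0.10, adjusted p = 0.23) and turned sign with ACEi (log2 0.03, adjusted p = 0.79). Vdr lost its call with Anti-miR-21 (adjusted p = 0.11) and Slc34a1 with ACEi (adjusted p = 0.061), so that 4 genes stayed called lower with ACEi. On the FPKM scale 5 of the 10 were called between Anti-miR-21 and WT.

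The treatments were also compared directly. In edgeR 0 of the 10 genes were called between Anti-miR-21 and ACEi, where 0.363% of all genes were called higher and 0.221% lower, and DESeq2 and limma also called 0. At an unadjusted p under 0.05 there were 2 in edgeR, Slc20a1 and Cyp24a1, 3 in DESeq2 and 2 in limma on FPKM. Cyp24a1 was at 204.4 ± 52.79 CPM (SD, n = 6) with Anti-miR-21 and 94.03 ± 44.63 CPM (SD, n = 3) with ACEi, a log2 difference of 1.12 (SE 0.40, adjusted p = 0.2). Its 95% normal interval ran from 0.33 to 1.91. For Slc34a1 the difference was 0.15 with an interval from -0.36 to 0.66, and for Kl 0.20 with one from -0.19 to 0.59. With 3 ACEi mice the intervals leave room for differences in either direction for Slc34a1 and Kl.

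Ratios of genes within a library are little touched by library scaling. In all, 12 log2 ratios were compared in 4 comparisons by two-sided exact permutation tests over mice, adjusted over the 48 tests, and the smallest p a test can give is 0.002165 with 5 or 6 mice a group and 0.0119 with ACEi. Of the 12 ratios, 9 were called for Veh against WT, 7 for Anti-miR-21 against Veh, 3 for ACEi against Veh and 0 between the treatments, where 3 were called on the FPKM scale. With single mice left out these counts ran from 5 to 10, 4 to 9, 0 to 6 and 0 to 2. The first 3 were lowest without Veh mouse A1 or A4, and the third also without any single ACEi mouse. Without the 4 libraries rich in adipocyte markers all were 0, and within flow cells the count for ACEi against Veh was 0. Fewer mice, or comparing mice only within flow cells, also raise the smallest p a test can give. Without those 4 libraries it was 0.1 for ACEi against Veh, so that 0 was fixed beforehand.

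**Figure D4:**
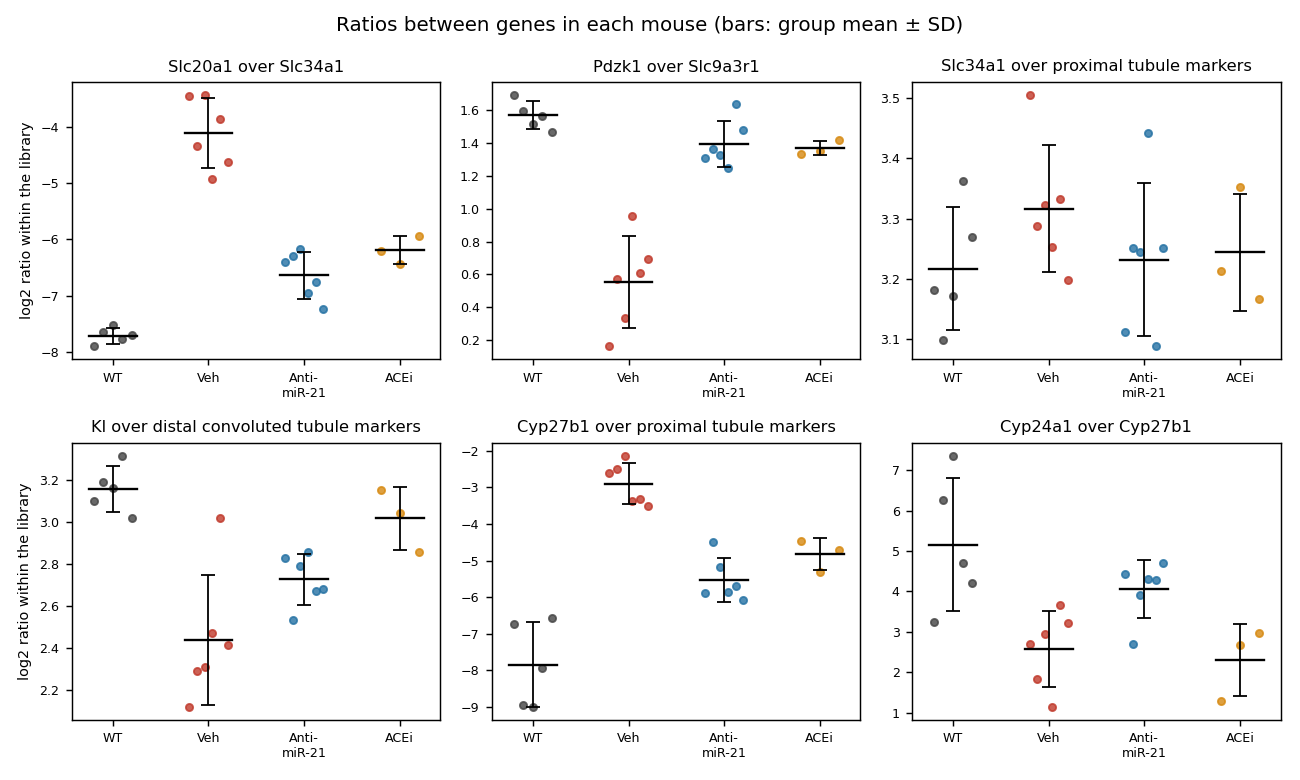
Log2 ratios within each library (points are mice, lines group means, bars 1 SD) for 6 of the 12 ratios. Slc20a1 over Slc34a1 is -7.71 in WT and -4.11 in Veh on average, whereas Slc34a1 over proximal tubule markers lies between 3.09 and 3.51 in all mice.

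The level of Slc34a1 relative to other proximal tubule genes did not differ beyond its spread. Its log2 ratio to the mean of 6 proximal tubule markers (Slc5a2, Slc5a12, Slc22a6, Slc13a3, Slc7a13 and Slc27a2) was 3.22 ± 0.10 (SD, n = 5) in WT and 3.32 ± 0.10 (n = 6) in Veh, a difference of 0.10 (exact permutation p = 0.1515, adjusted p = 0.2008). The markers themselves were all called lower in Veh, from -1.42 to -4.59 on the log2 scale, and their summed level was 8779 to 11650 CPM in WT and 934.3 to 2490 CPM in Veh. The part of this change in the result for Slc34a1 was not tested. The ratio of Slc34a1 to Slc34a3 also did not differ between Veh and WT beyond its spread (difference -0.22, exact permutation adjusted p = 0.2364). Slc34a3 over the same markers differed by 0.32 between Veh and WT, which was not called (exact permutation adjusted p = 0.07965). With Anti-miR-21 it differed from Veh by -0.48 (exact permutation adjusted p = 0.03571). That call was lost without Veh mouse A1, A4 or A19 and without the libraries rich in adipocyte markers. Pdzk1 over the same markers was higher in Veh than in WT by 0.46 (exact permutation adjusted p = 0.04921). That call was lost whichever WT mouse was left out, with differences of 0.42 to 0.53.

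Both vitamin D enzymes were higher in Veh relative to the proximal tubule markers. These ratios also move with the markers, whose median log2 change was -2.69 in Veh against WT. Against Veh that median was 2.05 with Anti-miR-21 and 1.66 with ACEi. By its own level Cyp24a1 was not called between Veh and WT (log2 -0.53), and Cyp27b1 differed by 0.02 between ACEi and Veh. Cyp27b1 over the proximal tubule markers rose by 4.94 on the log2 scale in Veh, and all Veh mice (-3.50 to -2.13) lay above all WT mice (-9.00 to -6.57; exact permutation adjusted p = 0.01299). Against Veh it was -2.63 with Anti-miR-21 (exact permutation adjusted p = 0.01299) and -1.92 with ACEi (exact permutation adjusted p = 0.03571). Cyp24a1 over the same markers was higher in Veh than in WT by 2.37 (exact permutation adjusted p = 0.02834). That call was lost without WT mouse A3 or A17 or Veh mouse A1 or A4 (differences 2.17 to 2.44, adjusted p = 0.05378 to 0.05714). Slc20a1 over Slc34a1 rose by 3.60 in Veh, and the change with treatment was -2.53 with Anti-miR-21 and -2.08 with ACEi (exact permutation adjusted p = 0.01299, 0.01299 and 0.03571). Pdzk1 over Slc9a3r1 was lower in Veh (log2 difference -1.01, exact permutation adjusted p = 0.01299), which compares the scaffolds directly, and higher than in Veh by 0.84 with Anti-miR-21 and 0.81 with ACEi (exact permutation adjusted p = 0.01299 and 0.03571). The 3 ratios called between ACEi and Veh (Cyp27b1 over the markers, Slc20a1 over Slc34a1 and Pdzk1 over Slc9a3r1) were not called within flow cells (adjusted p = 0.06667 for each). Nor were they called without Veh mouse A1 or A4 or any 1 of the 3 ACEi mice (adjusted p = 0.05714 to 0.08163). In each of them all ACEi mice lay apart from all Veh mice, so p stayed at the smallest its test could give. That smallest p rises within flow cells and with fewer mice, to 0.01786 with 5 Veh mice and 0.03571 with 2 ACEi mice. These losses therefore cannot show that the ratios hang on single mice or flow cells.

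The ratio of Cyp24a1 to Cyp27b1, the breakdown enzyme over the making enzyme, was 5.16 ± 1.64 (SD, n = 5) in WT, 2.58 ± 0.94 (n = 6) in Veh, 4.06 ± 0.71 (n = 6) with Anti-miR-21 and 2.31 ± 0.90 (n = 3) with ACEi on the log2 scale. Veh was lower than WT by a difference of -2.57 (exact permutation adjusted p = 0.02078), and Anti-miR-21 was higher than Veh by 1.47 (exact permutation adjusted p = 0.03571). The first call was lost without Veh mouse A1 or A4 (adjusted p = 0.05714 for both) and without the libraries rich in adipocyte markers (0.1805). The difference was then -2.60, -2.42 and -2.48. The second was lost within flow cells (adjusted p = 0.06667), without those libraries (0.1978) and without any 1 of 7 mice, namely A1, A4, A2, A10, A12, A15 and A22 (0.05195 to 0.07453). Without 1 of these 7 mice the difference was 1.32 to 1.51. These lost calls therefore came with differences near those of all mice. ACEi differed from Veh by -0.28 (exact permutation adjusted p = 0.6584). Anti-miR-21 was 1.75 above ACEi, which was not called (exact permutation adjusted p = 0.05195). WT spanned 3.25 to 7.36 and overlapped Veh, whose highest value was 3.66.

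Kl was also set against the distal convoluted tubule. Its log2 ratio to the mean of Slc12a3, Pvalb, Trpm6, Wnk1 and Emx1 was 3.16 ± 0.11 (SD, n = 5) in WT and 2.44 ± 0.31 (n = 6) in Veh, a difference of -0.72 (exact permutation adjusted p = 0.02078). Of these 5 markers 4 were called lower and 1 higher between Veh and WT, from -4.03 to 0.44 on the log2 scale, so the ratio compares Kl with a mean of genes that moved both ways, at least 1 of which fell more than Kl. The call was lost without the 4 libraries rich in adipocyte markers (difference -0.52, adjusted p = 0.07792). The remaining Veh mice (2.415 to 3.018) still lay below every WT mouse (3.019 or more). As 5 mice against 3 allow no p below 0.01786, the lost call alone shows no dependence on those libraries. With Anti-miR-21 the ratio was 2.73 ± 0.12 (n = 6) and with ACEi 3.02 ± 0.15 (n = 3), and neither difference from Veh was called (0.29 and 0.58, exact permutation adjusted p = 0.08929 and 0.06349).

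Within a group the same mice tended to stand at the ends. Veh mouse A16 was the highest of its group for 6 of the 10 genes (Slc34a1, Slc34a3, Slc9a3r1, Pdzk1, Kl and Cyp27b1) and the lowest for Cyp24a1, and Veh mouse A9 was the lowest for 5. Anti-miR-21 mouse A8 was the lowest for 7 and the highest for Cyp27b1, and A22 was the highest for 6. Summed proximal tubule markers were also highest in A16 among the Veh mice (2490 CPM) and in A22 among the Anti-miR-21 mice (8477 CPM). Macrophage markers were highest in A9 (1747 CPM) and A8 (1109 CPM) of those groups. The part of these differences in the spread of the 10 genes was not tested. Leaving out A16 moved the Slc34a1 change between Veh and WT to -2.88 and that of Pdzk1 to -2.53.

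Other cell type markers differed between the groups as well. The 6 macrophage markers were all called higher in Veh, with summed levels of 148.7 to 183.1 CPM in WT and 1427 to 1747 CPM in Veh, and the 5 fibroblast markers were all called higher, at 116.9 to 304.2 and 2273 to 2818 CPM. Both sums were lower in the treated groups than in Veh, with macrophage sums of 577.2 to 1109 CPM for Anti-miR-21 and 723.6 to 955.1 CPM for ACEi. No marker of either list was at 0 throughout a group. Between Veh and WT, Cyp27b1 and Slc20a1 were the 2 of the 10 genes called higher. With Anti-miR-21, Slc20a1 was called lower than in Veh (log2 -0.50) and Cyp27b1 was not. With ACEi neither was called lower in the main fit, and Slc20a1 was with upper-quartile scaling (log2 -0.26) and library totals (log2 -0.46). The part of these cells in the levels of the 10 genes was not tested.

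Of 38 further genes of these pathways, 35 passed the filter, and 13 were called higher and 16 lower in Veh than in WT, where 39% of all genes were called higher and 34% lower. Fgf23, Phex and Dmp1 did not pass. The median log2 fold change of the 35 tested genes was -0.09, beside 0.07 for all genes. In the FGF23 and PTH signalling list of 12, 3 rose and 5 fell of the 9 tested (39% and 34% of all genes). Pth1r, the parathyroid hormone receptor, fell (log2 -1.60, adjusted p = 6.6e-10), as did Fgfr4 (log2 -1.42, adjusted p = 1.1e-10) and Fgfr3 (log2 -1.16, adjusted p = 1.6e-09), whereas Fgfr1, the main FGF23 receptor partner of Klotho, was higher by 0.53 (adjusted p = 1.2e-06). Fam20c was not called.

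**Figure D5:**
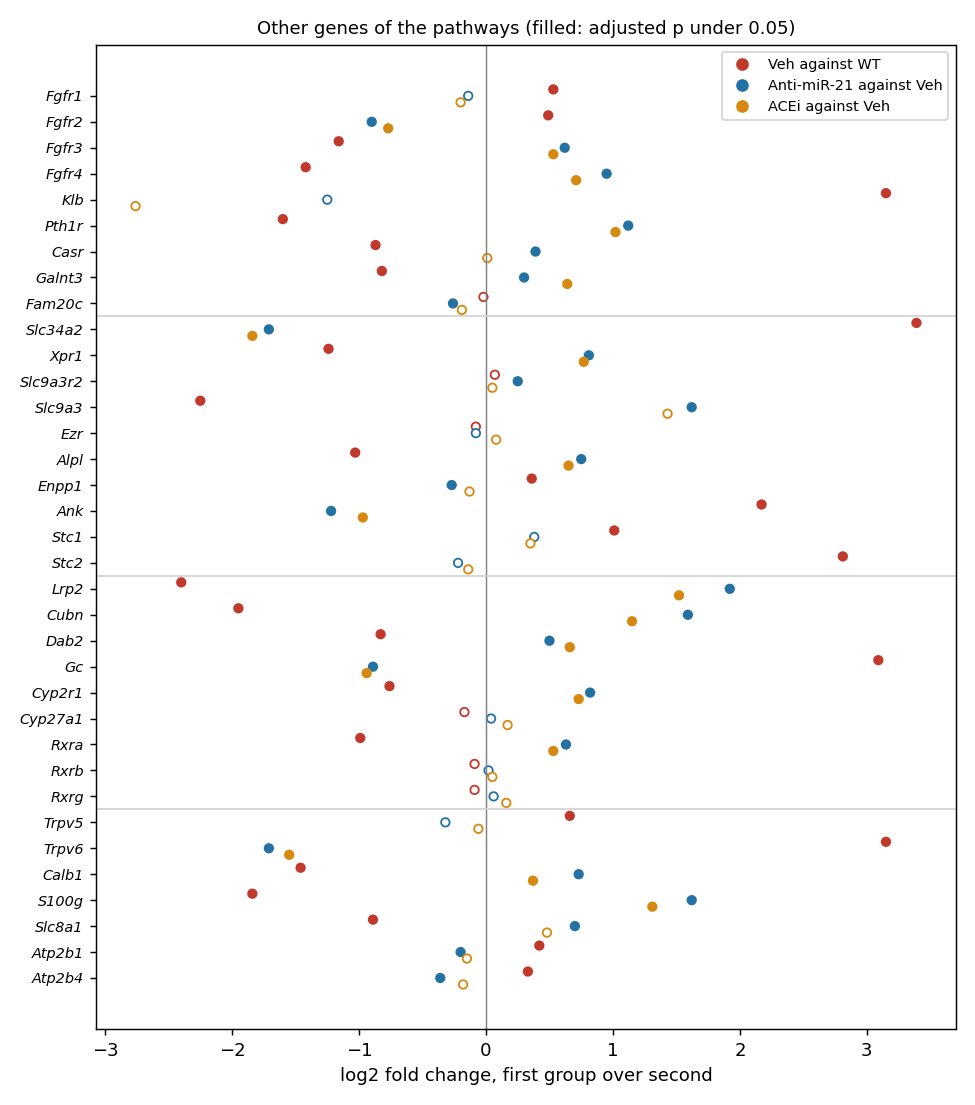
Log2 fold changes of the 35 tested pathway genes in 3 comparisons (colours), filled where the adjusted p is under 0.05, with grey lines between the 4 lists (FGF23 and PTH signalling, other phosphate handling, vitamin D uptake and partners, calcium transport). Slc34a2 (3.39), Trpv6 (3.15) and Gc (3.09) lie far to the right for Veh against WT and Lrp2 (-2.40) far to the left.

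Among 10 other phosphate handling genes, 5 rose and 3 fell in Veh, near the 39% and 34% of all genes. Slc34a2, the phosphate cotransporter of lung and gut, rose from a mean of 5.419 CPM in WT to 57.05 CPM in Veh (log2 3.39, adjusted p = 3.5e-12) and was lower than Veh with Anti-miR-21 (17.46 CPM, log2 -1.71, adjusted p = 4.4e-08) and ACEi (15.91 CPM, log2 -1.84, adjusted p = 1e-05). Ank, which moves pyrophosphate out of the cell, was higher by 2.17 (adjusted p = 3e-11), and Stc2, a stanniocalcin, by 2.81 (adjusted p = 4.3e-11). Stc2 showed no call with either treatment (log2 -0.22 and -0.14). Xpr1, a phosphate exporter, fell (log2 -1.24, adjusted p = 1.2e-10), and so did the sodium-proton exchanger Slc9a3 (log2 -2.25, adjusted p = 0.0009) and Alpl, the tissue-nonspecific alkaline phosphatase (log2 -1.03, adjusted p = 3.6e-06). Slc9a3r2 and Ezr were not called.

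In the list of 9 genes for vitamin D uptake, synthesis and partners, 5 fell and 1 rose, where 34% of all genes fell and 39% rose. The endocytic receptors that take up filtered vitamin D binding protein both fell, Lrp2 (megalin) with a log2 change of -2.40 (adjusted p = 1.1e-09) and Cubn (cubilin) with one of -1.95 (adjusted p = 5.1e-10). Lrp2 had means of 1537 CPM in WT and 292 CPM in Veh. Lrp2 was higher than Veh with Anti-miR-21 (1106 CPM, log2 1.92) and with ACEi (835.9 CPM, log2 1.52). Gc, the binding protein itself, rose from 11.65 to 99.12 CPM (log2 3.09, adjusted p = 6.4e-10). Rxra, the partner of Vdr, fell (log2 -0.99, adjusted p = 8e-10), as did Dab2, an adaptor of megalin (log2 -0.83, adjusted p = 1.8e-07), and the 25-hydroxylase Cyp2r1 (log2 -0.76, adjusted p = 0.0045). Cyp27a1, Rxrb and Rxrg were not called.

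In the calcium transport list of 7, 4 rose and 3 fell, beside 39% and 34% of all genes. The calcium-binding proteins of the distal nephron fell, Calb1 with a log2 change of -1.46 (adjusted p = 1.6e-09) and S100g with -1.84 (adjusted p = 1.9e-07), while the entry channels rose, Trpv6 by 3.15 (adjusted p = 2.5e-09) and Trpv5 by 0.66 (adjusted p = 0.0014). With library totals alone none of the 29 pathway calls between Veh and WT turned sign, and those of Casr, Cyp2r1 and Slc8a1 were lost. Between Anti-miR-21 and Veh 2 calls, Galnt3 and Slc9a3r2, turned sign.

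Genes whose profile over the 20 mice lay nearest to each member were found among protein-coding genes by the root mean square (RMS) difference of centred log2 CPM. Slc34a1 lay nearest to Abhd3 (0.077), Sord (0.111) and Slc6a20b (0.113), against its own spread of 1.13. Pdzk1 lay nearest to Slc17a1 (0.078), Cyp2j5 (0.079) and Gcdh (0.088), Kl to Aldh4a1 (0.121), Oxct1 (0.124) and Ivd (0.132), and Slc9a3r1 to Uqcrc1 (0.075), Ndufs3 (0.079) and Pgpep1 (0.083). Vdr lay nearest to Aco1 (0.092), Bnc2 (0.112) and Cryz (0.125), and Slc34a3 to Pik3c2g (0.218) and Ass1 (0.225). For Slc20a1 the nearest were Grn (0.120), Sept2 (0.122) and Cd47 (0.124), and for Slc20a2 they were Tmed7 (0.066), Ranbp9 (0.076) and Plxdc2 (0.078), against a spread of only 0.21. Cyp27b1 (Spc24 at 0.468, Kifc1 at 0.502 and Cdca3 at 0.506) and Cyp24a1 (Phf7 at 0.536, Gm9958 at 0.554 and Rnf167 at 0.567) had no gene close to them relative to their spreads of 1.04 and 0.70. All profiles share libraries and the group differences, so the distances are a description.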

How the data were processed

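Total kidney RNA of 20 mice was sequenced as paired-end reads, which the authors aligned to GRCm38 with OmicSoft tools. The deposited table of estimated counts per gene, rounded to whole numbers here, was used for the tests. The authors' FPKM values, whose gene model differs from that of the counts, gave levels per length and alternatives, and the deposited alignment counts per library gave depth. Exon lengths and positions, deposited beside the FPKM table, were read too, and gene positions came from GRCm38 annotation. Whether counting used strand is not given in the sources used here. The FPKM and library tables hold 3 further libraries that match no sample and were not used.

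Genes were filtered with filterByExpr (minimum count 10, total 15), scaled by TMM and fitted over all 4 groups with edgeR 4.0.16 (quasi-likelihood test, Benjamini-Hochberg adjusted p under 0.05, R 4.3.3). Log2 ratios used CPM with a prior count of 2 and exact two-sided permutation tests over mice (Python 3.11.15, NumPy 2.4.6). Alternatives used limma 3.58.1 on log2(FPKM + 1) or log2(FPKM + 0.1), DESeq2 1.42.0, other scalings and filters, the flow cell, and mice left out. Leaving out the 4 libraries with over 50 CPM of adipocyte markers was chosen after seeing the data. The statistics were first tested on simulated data, 200 genes being changed by known folds.

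The members and gene lists were chosen with earlier results of these data known. Named genes were the 10 members, Col4a3, pathway genes called between Veh and WT with a mean of at least 1 CPM (others by name only), and for each member the 3 nearest protein-coding genes, of which 1 is not reported here. Each library is 1 mouse, so p-values measure the spread between mice.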

Additional observations from a re-analysis of the deposited data

Results flagged for a closer look

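A sample far from the others of its group was looked for in 66 groups of values, and 5 were found, where chance gives about 1 in 20. In Veh mouse A16, Pdzk1 was at 479.3 CPM while the other 5 mice lay between 211.6 and 290.2 CPM. In the same mouse Slc9a3r1 was at 247.2 CPM, and the others lay between 167.5 and 194.5 CPM. The summed proximal tubule markers were also highest in A16 among the Veh mice (2490 CPM), and their part in these values was not tested. In Anti-miR-21 mouse A22, Slc20a2 was at 58.08 CPM, and the others lay between 50.45 and 52.9 CPM. In WT mouse A14 the log2 ratio of Slc20a2 to Slc20a1 was 0.4837, and the others lay between 0.7453 and 0.8255. In Veh mouse A9 the log2 ratio of Slc34a3 to the proximal tubule markers was -4.113, and the others lay between -3.555 and -3.404.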

How the results depend on the processing

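No paired analysis was possible because each mouse name is unique and pairs no mice across groups. Scaling by library totals, log2(FPKM + 1) and log2(FPKM + 0.1), in that order, turned the sign of Slc20a2 between Veh and WT (0.06, 0.07 and 0.07), Anti-miR-21 and Veh (-0.16, -0.16 and -0.17), ACEi and Veh (-0.03, -0.04 and -0.04) and ACEi and WT (0.03 each), of Cyp24a1 between Veh and WT (0.07, 0.11 and 0.11) and of Cyp27b1 between ACEi and Veh (-0.24, -0.20 and -0.23). Cyp27b1 between ACEi and Veh, at 0.02, was also -0.05 with upper-quartile scaling, -0.03 with the flow cell as a term, -0.16 in the second flow cell alone and -0.12 to 0.16 with single mice left out. Cyp24a1 between ACEi and Veh was 0.32 in the first flow cell alone and -0.62 to 0.09 with single mice left out, and its ratio to Cyp27b1 was then -0.61 to 0.23. Between Anti-miR-21 and ACEi, where no member was called, signs turned for Slc20a2 (0.09, first flow cell), Slc34a1 (-0.19, second flow cell), Slc34a3 (0.02 with the flow cell as a term, 0.08 in the first, -0.26 to 0.09 with mice left out), Pdzk1 over Slc9a3r1 (-0.01 within flow cells, -0.02 to 0.06 with mice left out) and Slc34a1 over proximal tubule markers (0.02 and -0.05 to 0.04). The cause was not tested.

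Of all genes, 103 were called between Anti-miR-21 and ACEi, 66 with no filter, 155 with at least 10 counts in every mouse, 5 and 0 in the first and second flow cell, 63 without the libraries rich in adipocyte markers, 443 by DESeq2, 60 on log2(FPKM + 0.1), 21 without ACEi mouse A23 and, without Anti-miR-21 mouse A8, more than in any of these except DESeq2. Between ACEi and Veh 7074 were called, 3057 and 1316 in the flow cells and 4614 without those libraries. Between ACEi and WT 8405 were called, 4893 and 4999 in the flow cells, and the second flow cell gave 418 of 10440 between Anti-miR-21 and Veh and 2437 of 7699 between Anti-miR-21 and WT. Of the members, the second flow cell called 3 for ACEi against Veh, 2 for Anti-miR-21 against Veh and 2 for Anti-miR-21 against WT, where both FPKM scales called 5 and 5. The fits within 1 flow cell hold fewer mice, whereas the FPKM fits hold all 20. The number of ratios called was 0 within flow cells between ACEi and Veh, and 3 on log2(FPKM + 0.1) between Anti-miR-21 and ACEi. It was 0 in each comparison with Veh without the libraries rich in adipocyte markers. There 5 mice against 3 allow no p below 0.01786 (WT or Anti-miR-21 and Veh). For ACEi and Veh, 3 mice against 3 allow none below 0.1, so that 0 was fixed beforehand. With single mice left out the number of ratios called was 0 to 6 (ACEi and Veh), 0 to 2 (Anti-miR-21 and ACEi), 4 to 9 (Anti-miR-21 and Veh) and 5 to 10 (Veh and WT). In the 3 comparisons with Veh it was lowest without Veh mouse A1 or A4, and between ACEi and Veh also without any single ACEi mouse.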
